A study of Mus musculus with 7 samples.

Results

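Mgst2 was examined together with 9 other genes of leukotriene and prostaglandin synthesis in LSK cells, the BM cells that lack lineage markers, carry Sca1 and cKit and include the HSCs. The 10 genes (Mgst2, Ltc4s, Alox5, Alox5ap, Lta4h, Mgst1, Mgst3, Ptgs1, Ptgs2 and Cysltr1) were picked by symbol from the 48440 genes of the deposited table, and all 10 were found. Mgst2 was selected because it differed between the groups in these same libraries, so its values, and those of Gm37261 that lies inside it, are a description with no test. The LSK cells were sorted at day 77 from lethally irradiated (9.5 Gy) C57BL/6 mice that had received wild-type BM (4 libraries) or BM with a constitutive, endonuclease-made PROSER1 KO (3 libraries). The comparison asks what loss of PROSER1, a partner of the TET enzymes that remove DNA methylation, does to expression in stem and progenitor cells, and all 7 libraries come from irradiated, transplanted hosts. No sort that separates donor from remaining host cells is described for these mice, and whether a library is 1 mouse, and the sex and age of the mice, are not given in the sources used here.

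Leukotrienes and prostaglandins are lipid signals made from arachidonic acid that phospholipases release from membranes. In the leukotriene branch, 5-lipoxygenase (Alox5), which receives its substrate from the activating protein Alox5ap, makes leukotriene A4. Lta4h hydrolyses this to leukotriene B4, whereas leukotriene C4 synthase (Ltc4s) or the microsomal glutathione transferase Mgst2 joins it to glutathione to make leukotriene C4, the parent of the cysteinyl leukotrienes that Cysltr1 recognizes. In the prostaglandin branch, the cyclooxygenases Ptgs1 and Ptgs2 make the precursor of prostaglandins and thromboxane. In blood, cysteinyl leukotrienes are best known as products of mast cells, basophils and eosinophils, and Mgst2 as the leukotriene C4 producer of cells outside the blood lineages.

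The deposited values are normalized counts, the read pairs of a gene divided by 1 size factor per library. The libraries held 33143619 to 45140743 read pairs on genes, and 3 read pairs, the limit that a count of 0 allows, are worth 2.54 to 3.48 normalized counts (counting error only). Proser1, the targeted gene, was not lower in the libraries labelled PROSER1 KO (2338 to 2464 normalized counts against 2019 to 2153, log2 difference 0.19, adjusted p = 0.204 from limma), so every direction below rests on the labels, and these libraries are called KO-labelled. The defining LSK markers Kit (25535 to 32357 normalized counts) and Ly6a, which encodes Sca1 (3961 to 6822), were present throughout. Transcripts of plasma cells were also abundant, with Jchain, the immunoglobulin J chain, at 151607 to 384345. The summed level of 7 plasma cell markers was 170818 to 428871 in wild-type against 199947 to 298722 in the KO-labelled libraries, with 0 of the 7 markers higher and 7 lower in the latter by their log2 differences, and 0 passed the test. In bulk RNA of this kind, fewer cells of a type and less RNA per cell cannot be told apart.

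The RefSeq promoter windows of both leukotriene C4-making enzymes, Mgst2 and Ltc4s, are shown because one of these genes differed between the groups and the other did not pass the test. Each window holds the 250 bases before and the 50 bases after a RefSeq start (GRCm38.p6), 5′ to 3′ on the gene's strand, with every CpG and every TATAAA in capitals. The Mgst2 window is chr3:51660929-51661228 on the forward strand, and the Ltc4s window is chr11:50238483-50238782 on the reverse strand.
Mgst2: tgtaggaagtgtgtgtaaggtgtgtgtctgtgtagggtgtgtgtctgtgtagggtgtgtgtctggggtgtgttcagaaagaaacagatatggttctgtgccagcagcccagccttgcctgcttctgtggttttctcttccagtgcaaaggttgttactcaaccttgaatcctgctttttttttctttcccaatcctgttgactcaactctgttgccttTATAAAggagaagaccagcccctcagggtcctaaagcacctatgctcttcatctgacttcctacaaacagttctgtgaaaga
Ltc4s: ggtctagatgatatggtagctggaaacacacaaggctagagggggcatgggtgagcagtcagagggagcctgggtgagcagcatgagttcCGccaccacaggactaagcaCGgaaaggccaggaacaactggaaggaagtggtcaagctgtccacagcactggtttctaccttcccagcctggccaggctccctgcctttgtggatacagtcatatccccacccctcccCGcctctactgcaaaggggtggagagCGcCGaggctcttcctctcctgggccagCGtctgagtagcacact
The Mgst2 window holds 0 CpG, whereas the Ltc4s window holds 6 and the median of 32851 RefSeq windows is 7. It holds TATAAA on both strands at the same place, overlapping, with the first base of the forward match 32 bases before the start. TATAAA is found on either strand in 13.6% of all windows and not in the Ltc4s window. GGGCGG (35.7% of windows) and TGACNNNGC (12.4%), searched on both strands, match neither window, and GAGGAAG (13.6%) matches the Ltc4s window alone, on 1 strand. The RefSeq start of Mgst2 lies 819 bases downstream of the first GENCODE start, so that the window covers 1 of its possible starts. Windows were found for 8 of the 10 genes, and for Mgst1 there were 2, with 13 and 1 CpG. Mgst3 had the most CpG of these windows, 21, followed by Lta4h and Ptgs2 with 16 each, Alox5 with 7 and Ptgs1 with 6.

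Mgst2 was lower in every KO-labelled library than in any wild-type library. In order of replicate number, it had 1125, 736, 693 and 1147 normalized counts in wild-type, against 290.0, 178 and 140.2 in the KO-labelled libraries, and the values of other genes are listed in the same order. The lowest wild-type library was thus above the highest KO-labelled library, and wild-type replicates 1 and 4 stood above replicates 2 and 3. On average this was 925 ± 244 (SD, n = 4) against 203 ± 78.0 (SD, n = 3), which is 4.57-fold lower, and the log2 difference was -2.21 (SE 0.26). This difference, like those that follow, is PROSER1 KO minus wild-type on the log2(normalized count + 1) scale. Leaving out single libraries gave between -2.51 (without PROSER1 KO replicate 1) and -1.98 (without PROSER1 KO replicate 3). The plasma cell markers were likewise highest in wild-type replicates 4 and 1 (428871 and 293939 against 242510 and 170818), but among the KO-labelled libraries they were highest in replicate 3 (298722, against 222249 and 199947), where Mgst2 was lowest. By their log2 differences 7 of 7 were lower in the KO-labelled libraries, as Mgst2 was, with 0 called. Their part in the difference was not tested.

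**Figure D1:**
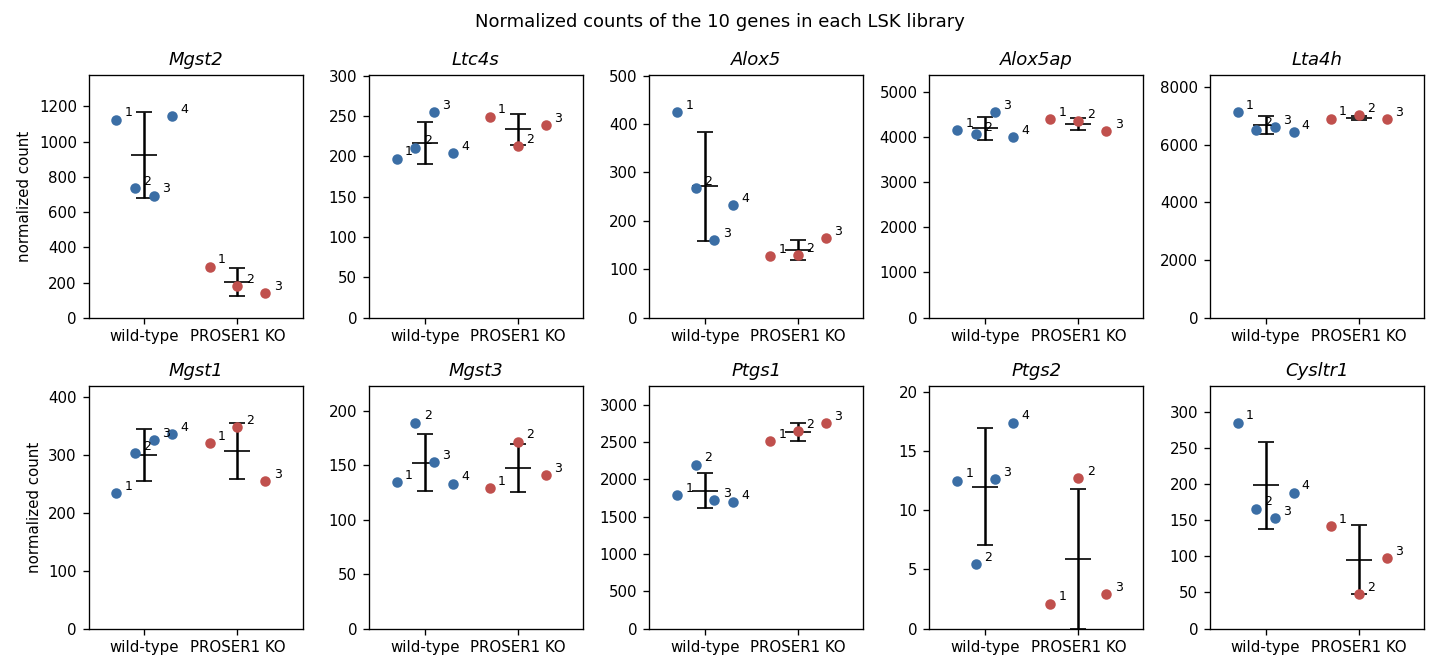
Normalized counts (y axis, from 0, own scale per panel) of the 10 genes in the wild-type (blue) and PROSER1 KO (red) libraries. Points are libraries with their replicate number, and black marks are means ± SD. For Mgst2 the highest PROSER1 KO point (290.0) lies under the lowest wild-type point (693), and for Ptgs1 the lowest PROSER1 KO point (2507) lies above the highest wild-type point (2197).

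Mgst2 (ENSMUSG00000074604) spans 51660360 to 51682677 on the forward strand of chromosome 3 (GRCm38) and has 9 annotated transcripts in GENCODE M21. Gm37261 (ENSMUSG00000103527), a provisionally annotated 1101-base transcript on the same strand from 51672801 to 51673901, lies within an intron of it, with 0 bases of overlap with an Mgst2 exon. Gm37261 had 246, 152, 121 and 284 normalized counts in wild-type against 6.26, 5.08 and 23.0 in the KO-labelled libraries, a log2 difference of -4.22 (SE 0.50). Reads of the intronic transcript and of unspliced Mgst2 RNA cannot be separated in a table per gene. As a share of Mgst2 it was 17.4% to 24.8% in wild-type, 2.16% and 2.86% in PROSER1 KO replicates 1 and 2, and 16.4% in replicate 3. Replicate 3 was therefore close to the wild-type range in this share although Mgst2 itself was lowest there.

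The nearest tested genes on either side did not pass the test. Maml3, a Notch coactivator whose gene ends 3.23 kb from Mgst2, had 2791 ± 194 (SD, n = 4) normalized counts in wild-type against 2727 ± 348 (SD, n = 3) in the KO-labelled libraries (log2 difference -0.04, adjusted p = 0.929 from limma). On the other side, the noncoding 5031434O11Rik, 93.2 kb away, had a log2 difference of 0.06 (adjusted p = 0.933). Within 1000 kb of Mgst2 there were 21 other tested genes with a median log2 difference of 0.01. The 8 protein-coding ones, which include Setd7, Naa15, Elf2 and Foxo1, had log2 differences between -0.07 and 0.08, and 0 of them passed the test. Over all chromosomes, 0.258% of 16251 tested genes were called, that is, had an adjusted p under 0.05 and changed by more than 1.5-fold. Besides Mgst2, the window held 2 genes counted among these, Gm37261, described here with no test, and the long noncoding RNA Gm5103. The difference of Gm5103, -5.25 (SE 0.45), was the largest in the window. Gm38357, not called, had the largest difference of the rest (-3.70). Gm5103 and Gm38357 were named after their values were seen. Mgst2 lies 1781 kb from Proser1, on the same chromosome. In this design, an effect of PROSER1 loss cannot be told apart from a donor difference inherited with the targeted allele. This holds for Mgst2 and its neighbours, and neither was tested.

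**Figure D2:**
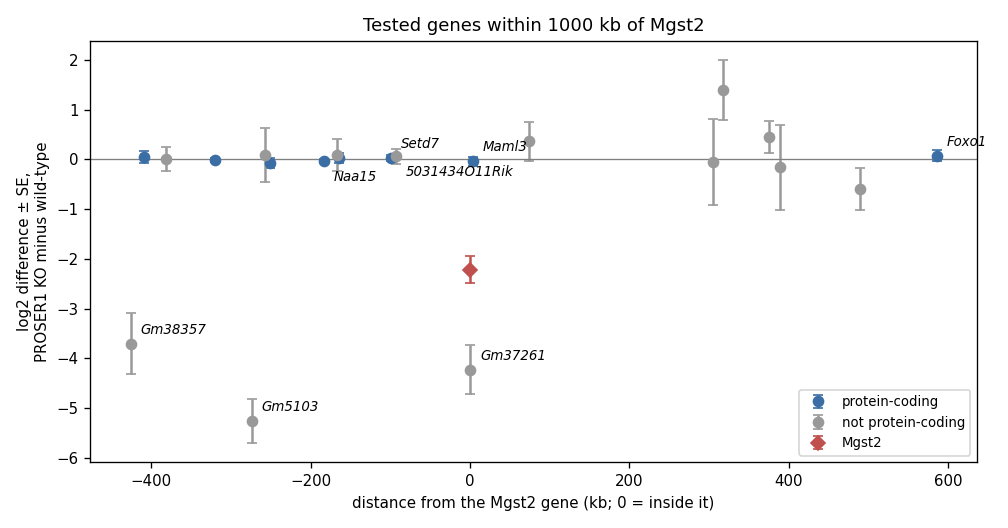
Log2 difference, PROSER1 KO minus wild-type (y axis, ± SE), of tested genes against their distance in kb from Mgst2 (x axis). Mgst2 (red diamond) is at -2.21, the protein-coding neighbours (blue) lie between -0.07 and 0.08, and the 3 lowest points (grey) are the noncoding or provisionally annotated genes Gm5103, Gm37261 and Gm38357.

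Ltc4s (ENSMUSG00000020377, chromosome 11, 50236461 to 50238616, reverse strand), the dedicated leukotriene C4 synthase, overlapped between the groups. It had 197, 211, 255 and 204 normalized counts in wild-type against 249, 212 and 239 in the KO-labelled libraries. The means, 217 ± 26.2 (SD, n = 4) and 234 ± 19.1 (SD, n = 3), gave a log2 difference of 0.11 (SE 0.14, adjusted p = 0.845 from limma). Counts were then divided by the length of all exons, to compare levels between genes. Mgst2 was at 1.20 ± 0.414 times the level of Ltc4s in wild-type and at 0.236 ± 0.0792 times in the KO-labelled libraries. With the length of the transcript that has the longest coding sequence in place of all exons, a choice added after the data had been seen, these ratios became 5.21 and 1.02. In the KO-labelled libraries Mgst2 was then above Ltc4s in replicate 1 (1.38 times) and below it in replicates 2 and 3 (0.993 and 0.696 times), whereas it lay below in all 3 with the length of all exons. The ratio was lower in every KO-labelled library than in any wild-type library. The length used cannot change this, since it scales the ratio of every library alike. The ratio also carries the difference for which Mgst2 was chosen.

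Both other microsomal glutathione transferases overlapped between the groups as well. Mgst1 (ENSMUSG00000008540, chromosome 6, 138140316 to 138156755), which detoxifies lipid peroxides, had 235, 304, 325 and 336 normalized counts in wild-type against 320.3, 349 and 254 in the KO-labelled libraries (log2 difference 0.04, SE 0.16, adjusted p = 0.965 from limma). Mgst3 (ENSMUSG00000026688, chromosome 1, 167371966 to 167393841) had 135, 189, 153 and 133 against 129, 172 and 141 (log2 difference -0.04, SE 0.18, adjusted p = 0.962). For both, the sign turned when single libraries were left out. Of the microsomal glutathione transferases tested besides Mgst2, 0 passed.

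Upstream of leukotriene C4, Alox5 (ENSMUSG00000025701, chromosome 6, 116410077 to 116461178, reverse strand) had the largest difference. Wild-type libraries had 425, 267, 159.8 and 233 normalized counts of it, against 127, 129 and 164 in the KO-labelled libraries. Wild-type replicate 1 stood above the rest and wild-type replicate 3 lay below PROSER1 KO replicate 3, so that the groups overlapped. Group means of 271 ± 112 (SD, n = 4) against 140.3 ± 20.7 (SD, n = 3) gave a log2 difference of -0.87 (SE 0.28), which did not pass the test (adjusted p = 0.357 from limma). On the recovered read pairs DESeq2 called Alox5 (adjusted p = 0.0205) and edgeR did not (0.330). Without wild-type replicate 1 the log2 difference was -0.62. In that library the summed level of the neutrophil granule genes S100a8, S100a9, Ngp and Ltf was also the highest, at 4662 against 740.2 to 1734 in the other wild-type libraries and 878 to 3111 in the KO-labelled ones. These 4 genes were picked from a list of 10 neutrophil and monocyte markers after their values had been seen. Elane (578), Mpo (15049) and Prtn3 (5015) of the same list were at their lowest wild-type level in that library, and the whole list summed to 31924 there, inside the wild-type range of 29798 to 32965 (KO-labelled range, 27833 to 33102). Their part in the Alox5 values was not tested.

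The partners of Alox5 were abundant, and neither passed the test. Alox5ap (ENSMUSG00000060063, chromosome 5, 149264767 to 149288153) had 4139.7, 4059, 4551 and 3987 normalized counts in wild-type against 4384, 4344 and 4122 in the KO-labelled libraries, with a log2 difference of 0.04 (SE 0.06, adjusted p = 0.891 from limma). Lta4h (ENSMUSG00000015889, chromosome 10, 93453411 to 93484875), which opens the branch to leukotriene B4, had 7142, 6518, 6616 and 6441 against 6906, 7016 and 6881 (log2 difference 0.06, SE 0.05, adjusted p = 0.749). In both genes the groups overlapped.

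Cysltr1 (ENSMUSG00000052821, X chromosome, 106574346 to 106603679, reverse strand), a receptor for cysteinyl leukotrienes, was lower without passing the test. It had 285, 166, 153 and 188 normalized counts in wild-type against 142, 47.4 and 97.0 in the KO-labelled libraries. The groups did not overlap, but PROSER1 KO replicate 1 lay close to wild-type replicate 3, and as for Alox5 the highest value was that of wild-type replicate 1. Mean levels were 198 ± 59.7 (SD, n = 4) against 95.4 ± 47.3 (SD, n = 3), with a log2 difference of -1.14 (SE 0.35, adjusted p = 0.327 from limma). Cysltr1 was called by DESeq2 (adjusted p = 0.0372) and not by edgeR (0.372), and without PROSER1 KO replicate 2 its log2 difference was -0.71. Of the mast cell and basophil markers, whose cells are known to carry this receptor and to make leukotriene C4, 2 of 9 tested were higher and 7 lower in the KO-labelled libraries, with 0 called. Their summed level was 8219 to 8988 in wild-type against 7788 to 8811 in these libraries. Most of it was Gata2 (6609 to 7547 against 6401 to 7472), so that the sum says little about the other markers. The basophil proteases Mcpt8 and Prss34 summed to 229.9 to 521 against 185 to 299. Taken singly, Prss34 overlapped (66.7 to 287 against 85.5 to 175). Mcpt8 did not overlap and was lower, at 163 to 242 against 80.6 to 158 (log2 difference -0.83, adjusted p = 0.280 from limma). Cpa3 of the same list went the other way, at 589 to 736 against 749 to 792 with no overlap. Gata2, Mcpt8, Prss34 and Cpa3 were named after their values were seen. The part of the mast cell and basophil markers in the values of Cysltr1 was not tested.

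In the prostaglandin branch, Ptgs1 (ENSMUSG00000047250, chromosome 2, 36230426 to 36252272, forward strand), the constitutive cyclooxygenase, was higher in every KO-labelled library than in any wild-type library. It had 1784, 2197, 1719.5 and 1693 normalized counts in wild-type against 2507, 2640.1 and 2755 in the KO-labelled libraries. Mean levels were 1848 ± 236 (SD, n = 4) against 2634 ± 124 (SD, n = 3), which is 1.43-fold higher, with a log2 difference of 0.52 (SE 0.09). Ptgs1 missed the threshold (adjusted p = 0.0617 from limma) and the minimum of 1.5-fold. Its adjusted p was 6.18e-06 with DESeq2 and 0.0732 with edgeR, and without wild-type replicate 2 it passed both limits (log2 difference 0.60, adjusted p = 0.0113). Markers of megakaryocytes and platelets, cells known for Ptgs1 and thromboxane, were also higher in the KO-labelled libraries. This held for 7 of 7 by their log2 differences, with 0 called, but the groups overlapped in each marker taken singly. Their summed level was 7144 to 9034 in wild-type against 9359.8 to 12181 there. Most of that sum was Itga2b (4627 to 5684 in wild-type against 5425 to 6803) and Vwf (1103 to 2914 against 2509 to 4231). Both were named after their values were seen. Among the KO-labelled libraries the order differed, since the marker sum was highest in replicate 1 and Ptgs1 in replicate 3. The part of these markers in the difference was not tested.

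Ptgs2 (ENSMUSG00000032487, chromosome 1, 150100031 to 150108227, forward strand), the inducible cyclooxygenase, was near the detection limit. It had 12.5, 5.41, 12.6 and 17.4 normalized counts in wild-type against 2.09, 12.7 and 2.88 in the KO-labelled libraries, which are 13, 6, 11 and 15 against 2, 15 and 3 read pairs. With a mean of 12 ± 4.94 (SD, n = 4) against 5.89 ± 5.91 (SD, n = 3), it fell under the minimum mean of 10 over all libraries and was not tested. A difference was not detectable at this depth (adjusted p = 0.717 from limma with no minimum).

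Of the 10 genes, 9 had a mean of at least 10 normalized counts. Mgst2, chosen for its difference, is left out of the counts that follow. The whole set was chosen with earlier results of these data known, so these counts are a description and no support. Of the other 8, which were tested, 0 were called by limma or edgeR, against 0.258% of all tested genes with limma and 0.246% with edgeR. At an unadjusted p under 0.05 there were 3 of these 8 (Ptgs1 higher, Alox5 and Cysltr1 lower), against 9.73% of all genes tested. The groups did not overlap in 2 of the 8, Ptgs1 (above wild-type, as in 5.17% of all genes) and Cysltr1 (below, as in 4.83%), against 10% of all genes for both directions. DESeq2 called 2 of the 8, Alox5 and Cysltr1, and 0.873% of all genes it tested. The median log2 difference of these 8 genes was 0.04, beside 0.00 (0.0015) over all tested genes. Exons of Ltc4s, Alox5ap and Ptgs1 share 268 of 1014, 189 of 1420 and 148 of 3884 bases with genes on the other strand. Since no source used here states whether counting used the strand, their reads in those stretches are uncertain.

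**Figure D3:**
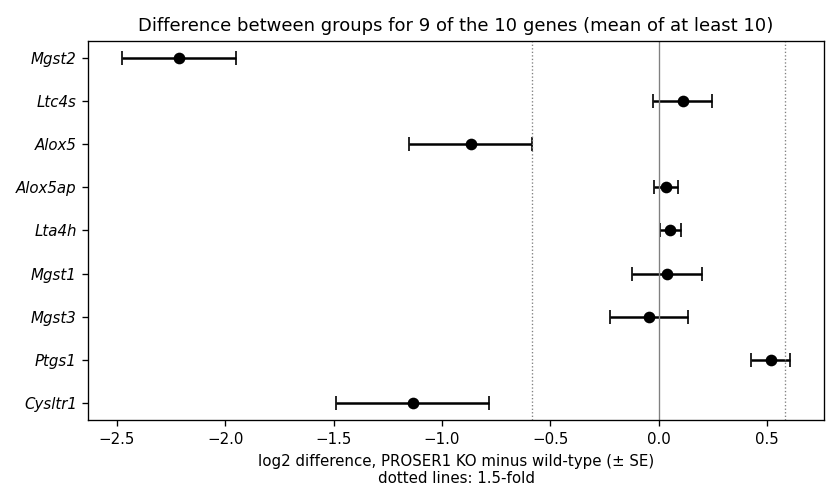
Log2 difference, PROSER1 KO minus wild-type (x axis, points ± SE), of the 9 genes with a mean of at least 10 normalized counts. Mgst2 (-2.21), Cysltr1 (-1.14) and Alox5 (-0.87) lie left of the dotted line at 1.5-fold, Ptgs1 (0.52) just inside the right one, and the other 5 between -0.04 and 0.11.

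Ordered by normalized counts per kb of exon in wild-type, Alox5ap came first with 2947 ± 178 (SD, n = 4), then Lta4h with 1095 ± 51.9 and Ptgs1 with 476 ± 60.7. Mgst2 came next with 249.9 ± 65.9 per kb, within its SD of Ltc4s at 214 ± 25.8. Mgst1 (149 ± 22.6) and Mgst3 (139 ± 23.8) differed by less than their SDs. Alox5 (66.0 ± 27.3) and Cysltr1 (38.5 ± 11.6) overlapped between libraries, and Ptgs2 was lowest with 2.62 ± 1.08. In the KO-labelled libraries, Mgst2 was at 54.7 ± 21.1 per kb, below Ltc4s (230.4 ± 18.8), Mgst1 (153 ± 24.0) and Mgst3 (134 ± 20.0). These places of Mgst2 depend on its length. With the transcript of the longest coding sequence for every gene, Mgst2 was at 336 ± 129 per kb in the KO-labelled libraries, within its SD of Ltc4s (326 ± 26.6) and Mgst1 (299 ± 46.9) and above Mgst3, and in wild-type it was at 1534 ± 404, above Ptgs1 (645 ± 82.2). Per kb of exon, the 5-lipoxygenase partner Alox5ap was far above Alox5 itself in both groups (3017 ± 99.7 against 34.2 ± 5.04 in the KO-labelled libraries).

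The wider pathway was followed with 60 other genes of eicosanoid biology, from phospholipases to receptors, also chosen with earlier results of these data known. Of these, 38 were tested, 20 higher and 18 lower in the KO-labelled libraries with a median log2 difference of 0.00 (0.0018), and 0 were called by limma, edgeR or DESeq2, beside 0.258%, 0.246% and 0.873% of all genes (lowest adjusted p = 0.103 from limma, for Ptger3). At an unadjusted p under 0.05 there were 8 of the 38, 6 higher and 2 lower, beside 9.73% of all genes, and the groups did not overlap in 15.8%, beside 10% of all genes. The 7 genes Pla2g2f, Pla2g5, Pla2g10, Alox12b, Gpr17, Oxgr1 and Ptgdr were at 0 in all libraries, which allows up to 3 read pairs in each.

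Among genes for the further steps of cysteinyl leukotrienes, Cysltr2, the second receptor, had 540.4, 589, 501 and 641 normalized counts in wild-type against 442, 407 and 375 in the KO-labelled libraries. All 3 of these libraries lay below wild-type, as for Cysltr1, at a log2 difference of -0.47 (SE 0.11, adjusted p = 0.163 from limma, and 0.0118 with DESeq2 at less than 1.5-fold). Ggt1, which removes glutamate from leukotriene C4 to give leukotriene D4, had the largest difference of the list, -1.59, through a single library. It was at 1.69 normalized counts in PROSER1 KO replicate 2 and at 23.0 to 49.8 in all others (adjusted p = 0.542 from limma). Ggt5, listed with Ggt1 for leukotriene conversion, had 1513 to 1663 normalized counts in wild-type against 1409 to 1719 in the KO-labelled libraries. Its log2 difference was 0.01 (adjusted p = 0.988 from limma; named after its values were seen). Abcc1, the exporter of leukotriene C4, had 5847 to 6490 normalized counts in wild-type against 5955 to 6051 in the KO-labelled libraries (log2 difference -0.03, adjusted p = 0.907; named after its values were seen). The leukotriene B4 receptors Ltb4r1 and Ltb4r2 had log2 differences of 0.12 and 0.23 (adjusted p = 0.830 and 0.903), and were named after their values were seen.

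Prostaglandin E2, a known regulator of HSCs, signals through Ptger1 to Ptger4. Ptger3 had 1167, 1106, 1179 and 1112 normalized counts in wild-type against 1437, 1354 and 1384 in the KO-labelled libraries, so that the groups did not overlap (log2 difference 0.29, SE 0.06, adjusted p = 0.103 from limma, 0.0133 with DESeq2 at less than 1.5-fold). Ptger4 did not overlap either, with 979.9 to 1148 against 1189.5 to 1265 (log2 difference 0.21, adjusted p = 0.369), and Ptger2 overlapped with 241 to 368 against 361 to 512 (log2 difference 0.54, adjusted p = 0.337). Ptger1 was low, at 15.1 to 29.9 normalized counts (log2 difference -0.21, adjusted p = 0.897). Of 6 prostanoid receptors tested, 3 had an unadjusted p under 0.05, all higher (9.73% of all genes in either direction), and 0 were called (0.258% of all genes). Exons of Ptger4 share 1015 and 82 of 6648 bases with 2 genes on the other strand. Those of Ptger2 share 246 and 144 of 5193 bases in the same way, so reads in these stretches are uncertain. Ptger1, Ptger3 and Ptger4, like Hpgds and Pla2g4a below, were named after their values were seen.

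Of the enzymes and carriers of this branch, Hpgds, a prostaglandin D2 synthase that uses glutathione, had 281 to 377 normalized counts in wild-type against 391 to 543 in the KO-labelled libraries (log2 difference 0.43, adjusted p = 0.380 from limma). The prostaglandin-degrading Hpgd was low in both groups, at 9.01 to 15.1 against 18.2 to 26.2 (log2 difference 0.74, adjusted p = 0.548). Slco2a1, the prostaglandin transporter, had 224 to 326 against 163 to 195, with no overlap (log2 difference -0.57, SE 0.16, adjusted p = 0.271). Pla2g4c, a phospholipase A2, overlapped (log2 difference 0.43, adjusted p = 0.740), and Pla2g4a, the enzyme best known for arachidonic acid release, had 2169 to 2685 against 2431 to 3029 (log2 difference 0.11, adjusted p = 0.753).

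**Figure D4:**
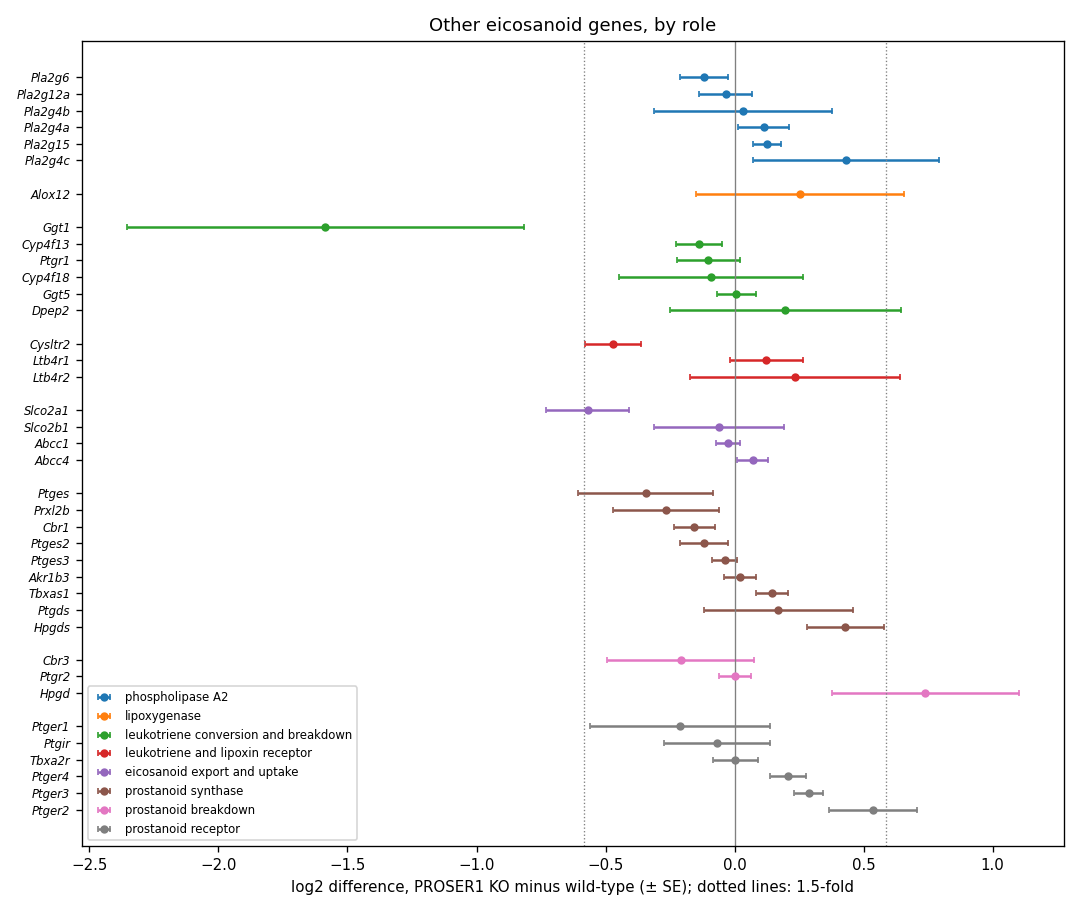
Log2 difference, PROSER1 KO minus wild-type (x axis, points ± SE), of the 38 tested genes of the wider eicosanoid list, grouped and coloured by role. Points gather around 0, Ggt1 at -1.59 carries the widest error, and 0 of the genes were called.

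Because Mgst2 uses glutathione, 35 genes of glutathione synthesis, peroxidases and cytosolic transferases were followed as well. Of these, 30 were tested, 13 higher and 17 lower, and 0 were called by limma or edgeR, beside 0.258% and 0.246% of all genes. At an unadjusted p under 0.05 there were 2 of the 30, beside 9.73% of all genes, and the groups did not overlap in 13.3%, beside 10%. Gstm2, a cytosolic transferase, had 112, 119.9, 92.0 and 143 normalized counts in wild-type against 178, 198 and 219 in the KO-labelled libraries. These did not overlap, and the log2 difference was 0.78 (SE 0.18, adjusted p = 0.166 from limma), a gene that DESeq2 called (0.0160). The other differences of this list were smaller or rested on low counts. Gsta3 had 14.4 to 20.7 against 4.17 to 12.5 normalized counts (log2 difference -0.97, adjusted p = 0.528), and Gstp3 17.2 to 45.2 against 15.2 to 22.1 (-0.65, adjusted p = 0.625). Chac1, which degrades glutathione, had a log2 difference of -0.42 (adjusted p = 0.662), and the peroxidases Gpx3 and Gpx7 had 0.36 (0.850) and 0.26 (0.649). Gclc and Gclm, the subunits of the enzyme that starts glutathione synthesis, differed by -0.06 and -0.13 (adjusted p = 0.776 and 0.540, named after their values were seen). Gsta1, Gsta2 and Gstm3 were at 0 in all libraries, which allows up to 3 read pairs in each, and reads can be shared between the closely related Gstm, Gsta and Gstp genes, so that their values are uncertain.

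Over the 7 libraries, the genes whose log2(normalized count + 1) was most like that of Mgst2 were Vps16 (Pearson's r = 0.99), R3hcc1 (0.99), Coro2a (0.98), Ccdc184 (0.98) and Fcer1g (0.98). These points share their libraries and scaling, and the likeness includes the difference between the groups. Among them only Ccdc184 and Fcer1g, the gamma chain of Fc receptors, differed by an amount near that of Mgst2 or Alox5 (log2 difference -1.81 and -0.93). After the group means had been taken out, Gm44659, Cd247, Il1rapl2, Gm26597 and Dnm2 came first (r between 0.985 and 0.997), and none of these was among the first 5. Both sets of 5 hold the highest r of all tested genes over only 7 libraries. Values this high can arise from that selection alone, so both sets are a description. Of the genes of the pathway itself, Ptgs1 (-0.93), Cysltr1 (0.84) and Alox5 (0.75) had the largest r with Mgst2 over the 7 libraries, and -0.52, 0.60 and 0.24 after the group means had been taken out. By the latter measure Mgst3 was largest in size (-0.64, and -0.10 over the 7 libraries).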

How the data were processed

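RNA of LSK cells was sequenced in 4 wild-type and 3 PROSER1 KO libraries, grouped by their titles. The authors trimmed the reads (Trimmomatic), mapped them to mm10 (STAR), counted pairs per gene (featureCounts) and deposited the counts divided by DESeq2 size factors, a normalized signal per gene without a filter. The methods name GENCODE M25 and the file header M10. Positions here come from M21, in which 99.2% of gene IDs were found. Whole read pairs were recovered for 100.0% of values (within 0.01), and 0 columns were left unused.

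limma 3.58.1 (R 4.3.3; lmFit, eBayes with trend) was fitted to log2(normalized count + 1) of the 16251 genes whose mean reached 10. Calls needed a Benjamini-Hochberg adjusted p under 0.05 and a fold change above 1.5. The fold change of a call is on this scale, where the pseudocount shrinks differences between low counts. Folds printed beside group means are ratios of those means. Labels call the replicates biological without naming animals. The p-values thus measure the spread between these libraries, and whether each library is a single mouse is not given. On recovered counts, edgeR 4.0.16 (quasi-likelihood) and DESeq2 1.42.0 were alternatives. DESeq2, at the same limits on adjusted p and fold change, is the test that the authors used. The pseudocount (0.1, 10) and the minimum mean (none, 50) were also changed, besides no trend, robust variances, quantile, TMM and library-total scaling, a replicate block, each library left out and other transcript lengths. The limma, edgeR and DESeq2 fits were first tested on simulated data. Named from the lists were genes called or at 0 everywhere and the 3 largest rises and falls of each. The 5 genes most like Mgst2, its neighbours and Proser1 were added, and genes outside this rule are marked as named after their values were seen. The 10 genes and the lists were chosen with earlier results of these data known. Figures were drawn with matplotlib 3.10.9 in Python 3.11.15.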

Additional observations from a re-analysis of the deposited data

Results flagged for a closer look

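Among the named genes, 29 sets of 4 wild-type values were examined for a library far from the other 3 (Dixon's ratio), and 2 were found, where chance alone gives about 1 in 20. Chac1, the glutathione-degrading enzyme, was at 79.3 normalized counts in wild-type replicate 3 and at 138 to 147 in the others. Gpx3, a secreted glutathione peroxidase, was at 44.1 in wild-type replicate 4 and at 13.5 to 16.1 in the others. Groups of 3 libraries were not examined. No value of Mgst2 or of the other 9 leukotriene and prostaglandin genes stood apart in this way.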

How the results depend on the processing

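The log2 difference of Mgst2 kept its sign in 19 of 19 alternatives, between -2.51 and -1.98 with single libraries left out and between -2.22 and -2.10 otherwise. Mgst2 was chosen for this difference and its groups do not overlap. Leaving out a library could therefore not turn the sign, and the count is no support for the difference. The number of the 10 genes called, in which Mgst2 counts only as a description, moved from 1 to 3 with DESeq2 and to 0 without the mean-variance trend and with robust variances. It ranged from 0 (without PROSER1 KO replicate 2) to 2 (without wild-type replicate 2, which adds Ptgs1) with single libraries left out. Of all genes, 42 were called, 165 with DESeq2, 17 without the trend, 80 with robust variances, and 23 (without PROSER1 KO replicate 2) to 42 with single libraries left out. The cause was not tested. Of the wider eicosanoid list, 0 genes were called in every alternative. Of the glutathione list 1, Gstm2, was called with DESeq2. With single libraries left out, the sign turned for Mgst1 (lowest value -0.075, highest 0.17), Mgst3 (-0.16 to 0.064), 5031434O11Rik (-0.077 to 0.20) and Maml3 (-0.14 to 0.033). Replicate numbers were not shown to pair libraries, as same-numbered libraries correlated by 0.02, 0.06 and -0.11 in their deviations, and with the replicate block 35 genes and 1 of the 10 were called, with a log2 difference of -2.10 for Mgst2. Per kb of its transcript with the longest coding sequence (added after the data were seen), Mgst2 was at 1534 in wild-type, against 249.9 per kb of all exons and 330.1 per kb of its longest transcript. Depth limits Ptgs2, Hpgd and Gsta3, whose low counts leave wide errors.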
